A study of Mus musculus with 30 samples.

Results

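The genes described here are 10 that mark tissue-resident macrophages or code for scavenger receptors: Fcrls, Mrc1, Stab1, Pf4, Cd163, Folr2, Marco, Msr1, Cd68 and Gpnmb. They were chosen with earlier results of these data known. All 10 were found by symbol among the 24552 genes of the count table. Their levels came from 30 RNA-seq libraries made from whole MC38 tumours (a line from a mouse colon carcinoma) that grew subcutaneously on the right flank of female C57BL/6J mice, 10 weeks old at injection. Treatment began at a tumour volume of 200 to 300 mm3. A single intravenous injection held mXTX301 (0.39 mg/kg), an unmasked positive control (0.03 mg/kg) or only vehicle, and the tumour was collected after 4 or 7 days. mXTX301 is a masked mouse surrogate of interleukin-12, a cytokine that makes T cells and natural killer cells release interferon-gamma. The 6 groups (3 treatments by 2 days) held 5 mice and 5 libraries each. The tumours come from a single cell line and were sequenced whole. More macrophages, more RNA of a gene per macrophage and its RNA from tumour or other cells cannot be told apart in any value below.

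Macrophages clear debris, dying cells and modified lipoproteins with scavenger receptors, a diverse set of surface proteins that bind such cargo and carry it to the lysosome. Some of these receptors, together with the mannose receptor and the folate receptor beta, are read as signs of long-lived resident macrophages, which differ in gene expression from macrophages newly formed from blood monocytes. In tumours such genes are often used to describe macrophages of a tissue-repair type, while interferon-gamma drives macrophages towards antigen presentation and nitric oxide production.

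All 10 genes are protein-coding in GENCODE M21 on mm10. Fcrls, an Fc receptor-like gene with a scavenger receptor domain, best known from microglia, lies on chromosome 3 at 87250758 to 87263738. Stab1 covers 31139013 to 31168641 on chromosome 14 with 58 merged exons, and Marco covers 120474538 to 120505024 on chromosome 1 with 17. The other receptors are Mrc1 (chromosome 2, 14229392 to 14332057), Cd163 (chromosome 6, 124304656 to 124330527), Folr2 (chromosome 7, 101839988 to 101857194), Msr1 (chromosome 8, 39581685 to 39642673) and Cd68 (chromosome 11, 69664213 to 69666153). Pf4 lies on chromosome 5 at 90772435 to 90773383 and Gpnmb on chromosome 6 at 49036546 to 49070929. Upstream windows of 250 bases were held in RefSeq (GRCm38.p6) for 9 of the 10 genes, with 2 windows for Folr2; Msr1 had none. Shown are 3 that results below turn on: Marco for its rise in all 4 drug comparisons, Stab1 because its response to the unmasked control differed between days, and Pf4 because its window alone held a searched motif. Each is written 5′ to 3′ on the gene's own strand and ends next to the transcription start; capitals mark the motif match.
Marco, chr1:120505025-120505274, minus strand: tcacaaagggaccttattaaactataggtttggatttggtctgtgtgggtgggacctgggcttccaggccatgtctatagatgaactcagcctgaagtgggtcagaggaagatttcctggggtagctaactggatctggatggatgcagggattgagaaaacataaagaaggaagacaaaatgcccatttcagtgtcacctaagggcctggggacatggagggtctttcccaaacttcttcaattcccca
Stab1, chr14:31168642-31168891, minus strand: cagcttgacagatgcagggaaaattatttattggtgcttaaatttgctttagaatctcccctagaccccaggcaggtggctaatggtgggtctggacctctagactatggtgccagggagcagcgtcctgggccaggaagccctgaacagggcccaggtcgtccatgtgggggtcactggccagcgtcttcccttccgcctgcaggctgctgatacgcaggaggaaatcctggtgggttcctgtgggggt
Pf4, chr5:90772185-90772434, plus strand: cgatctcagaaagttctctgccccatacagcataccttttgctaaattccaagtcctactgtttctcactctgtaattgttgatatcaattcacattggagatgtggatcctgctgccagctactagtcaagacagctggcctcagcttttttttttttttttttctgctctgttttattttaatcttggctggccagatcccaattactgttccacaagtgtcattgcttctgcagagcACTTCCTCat
Both strands of every window were searched for GAGGAAGT (PU.1, a myeloid factor), TCACGTGA and TCATGTGA (MiT/TFE factors of the lysosome). The only match among the windows of these 9 genes was GAGGAAGT in the Pf4 window, on the minus strand, from 10 to 3 bases before the start. Over 32851 RefSeq promoters, windows of this length held these motifs in 2.44%, 0.785% and 0.846% of cases in the order given. These letters are a description of the windows only.

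Total counts per library ran from 48301869 to 85195518, and 15482 genes passed the low-count filter, among them all 10 members. Levels are given in CPM (counts scaled to one common library size, after TMM) and differences as log2 fold changes ± SE of the edgeR quasi-likelihood fit, with p-values adjusted over the 15482 genes and a call at an adjusted p under 0.05. Libraries differed in skin RNA: the summed level of 11 epidermal genes ran from 0.785 to 942 CPM. The 12 libraries above the widest gap in the mean log2 CPM of these genes are called skin-rich here. The skin-rich libraries were 1 vehicle, 1 mXTX301 and 2 unmasked at day 4, and 3, 2 and 3 at day 7. Leaving them out is an alternative used below where it changes a call. The 15 pan-macrophage genes (such as Csf1r, Adgre1 and C1qa) were present throughout, with summed levels of 534 to 4939 CPM. The epithelial markers were low, as their 7 genes summed to between 1.96 and 17.3 CPM and Cldn7 did not exceed 0.0675 CPM in any library.

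At day 7 after mXTX301, 8 of the 10 members rose and Fcrls fell, against 25.7% of all tested genes called higher and 22.7% called lower. At day 4 after mXTX301, 5 members rose (Stab1, Marco, Msr1, Cd68 and Gpnmb) and Fcrls fell, against 16.2% and 16.0% of all genes. After the unmasked control, 4 members rose at day 4 (Marco, Msr1, Cd68 and Gpnmb) against 11.6% of genes, and 6 rose at day 7 (Stab1, Pf4, Marco, Msr1, Cd68 and Gpnmb) against 23.2%. Fcrls fell in both, where 10.8% and 21.8% of genes were called lower. The median log2 fold change of the 10 members was 0.80 at day 4 and 1.65 at day 7 after mXTX301, and 0.34 and 1.45 after the unmasked control. Over all tested genes these medians were 0.01, 0.02, -0.01 and 0.01. Groups of 5 drug and 5 vehicle libraries did not overlap for 4 members at each day after mXTX301 (18.6% of genes at day 4 and 30.8% at day 7). After the unmasked control they did not overlap for 5 members at day 4 and 6 at day 7 (13.8% and 25.3% of genes). The 2 drugs were compared with the same vehicle libraries, so their counts are not independent of each other. The members, and the gene lists below, were chosen with earlier results of these data known. Counts above the shares over all genes are therefore no evidence of enrichment.

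**Figure D1:**
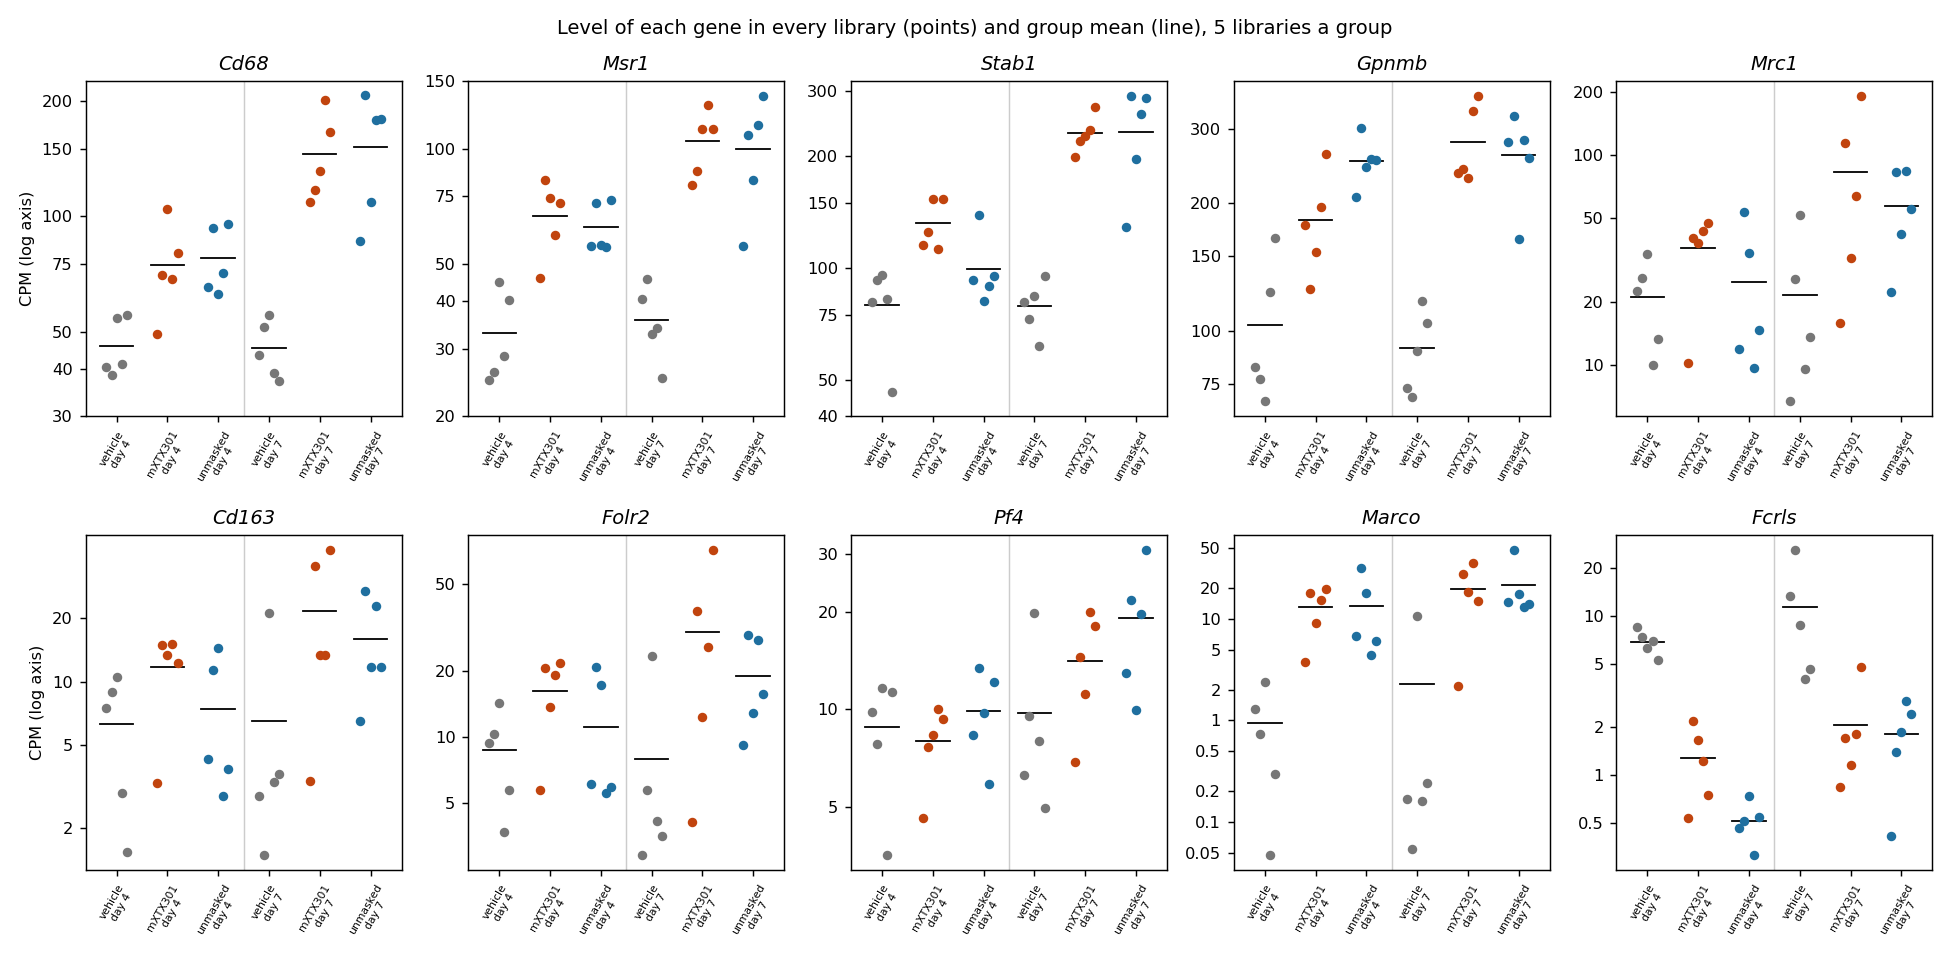
Level of each of the 10 genes in CPM (log axis) in every library (points) of the 6 groups, with the group mean as a line; grey is vehicle, orange mXTX301 and blue the unmasked control. Fcrls is low in the drug groups (unmasked day 4, 0.316 to 0.738 CPM; vehicle day 4, 5.26 to 8.46 CPM), Cd68 and Msr1 are high in them, and Mrc1, Cd163, Folr2 and Marco spread widely within groups.

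**Figure D2:**
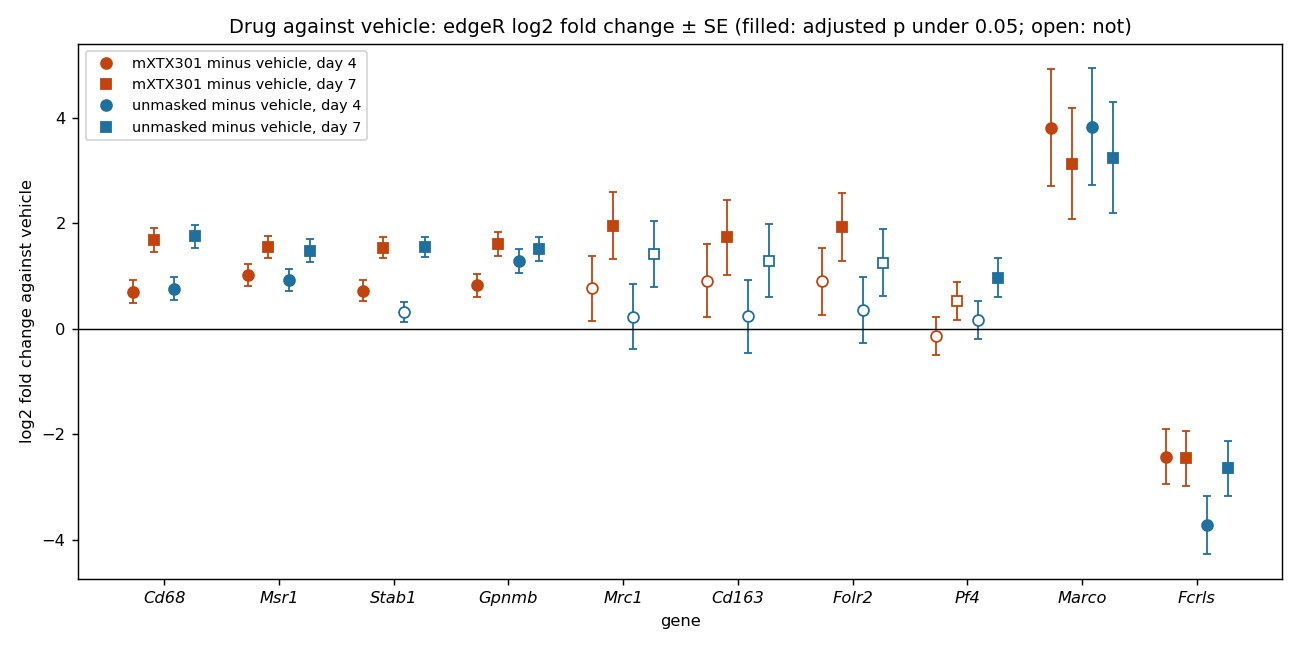
Log2 fold change of each gene against vehicle of the same day (edgeR, ± SE), circles for day 4 and squares for day 7, filled where the adjusted p is under 0.05. Marco lies between 3.13 and 3.83 in all 4 comparisons, Fcrls between -3.73 and -2.43, and Mrc1, Cd163 and Folr2 are filled only at day 7 after mXTX301.

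Msr1 and Cd68 rose in all 4 drug comparisons. Msr1 (class A scavenger receptor, which binds modified lipoproteins) measured 24.9, 26.2, 44.8, 28.7 and 40.2 CPM in vehicle at day 4 and 45.9, 82.6, 74.2, 59.4 and 71.9 CPM after mXTX301. The unmasked control gave 55.6, 72.2, 56.2, 55.3 and 73.5 CPM. All 10 drug libraries of day 4 lay above the 5 vehicle libraries. At day 7 vehicle gave 40.5, 45.7, 32.7, 34.1 and 25.1 CPM, mXTX301 80.4, 87.6, 113, 129.6 and 113 CPM and the unmasked control 55.8, 108, 82.8, 115 and 137 CPM, again without overlap. The log2 fold changes were 1.02 ± 0.21 (adjusted p = 0.000772) and 1.55 ± 0.21 (2.65e-06) for mXTX301 at days 4 and 7. For the unmasked control they were 0.93 ± 0.21 (adjusted p = 0.00262) and 1.49 ± 0.21 (5.45e-06).

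Cd68, a glycoprotein of late endosomes and lysosomes that is grouped with the class D scavenger receptors, had the highest level per kilobase of exon of the 10 genes in every group (45.9 CPM, or 36.5 CPM per kb, as the vehicle mean at day 4). It measured 40.4, 38.5, 54.3, 41.0 and 55.2 CPM in vehicle at day 4, 49.4, 70.2, 105, 68.8 and 80.4 CPM after mXTX301 and 65.4, 93.5, 62.6, 71.3 and 95.6 CPM after the unmasked control. The lowest mXTX301 library fell within the vehicle range, while the unmasked libraries all lay above it. At day 7 vehicle gave 43.4, 51.3, 55.1, 38.9 and 37.2 CPM, against 109, 117, 132, 201 and 167 CPM after mXTX301 and 86.3, 207, 109, 179 and 180.3 CPM after the unmasked control, with no overlap. Log2 fold changes were 0.70 ± 0.22 (adjusted p = 0.0160) at day 4 and 1.68 ± 0.22 (1.63e-06) at day 7 for mXTX301, and 0.76 ± 0.22 (0.0139) and 1.75 ± 0.22 (1.21e-06) for the unmasked control. Both day 4 calls of Cd68 were lost without the skin-rich libraries (0.51, adjusted p = 0.116, and 0.65, adjusted p = 0.0978), and without mXTX301 day 4 replicate 3 the mXTX301 value was 0.54 and not called.

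Marco, a class A scavenger receptor with a collagen-like stalk that binds bacteria and particles, had the largest rises of the 10 genes. In vehicle it had few counts, with 1.29, 0.731, 2.37, 0.0474 and 0.296 CPM at day 4 (3 to 129 counts per library) and 0.167, 0.0547, 10.7, 0.162 and 0.240 CPM at day 7. Replicate 3 of vehicle at day 7, with 690 counts, stood far above the other 4 libraries of its group, which had 4 to 16 counts. After mXTX301 Marco measured 3.75, 18.1, 9.14, 15.3 and 19.7 CPM at day 4 and 2.17, 27.8, 18.5, 35.7 and 14.9 CPM at day 7. The unmasked control gave 6.77, 31.5, 17.9, 4.42 and 6.04 CPM and 14.5, 47.9, 17.7, 13.1 and 14.1 CPM. All drug libraries of day 4 exceeded all vehicle libraries of day 4, and at day 7 the high vehicle library lay above the lowest mXTX301 library. Log2 fold changes at days 4 and 7 were 3.82 ± 1.11 (adjusted p = 0.0105) and 3.13 ± 1.05 (0.0165) for mXTX301, and 3.83 ± 1.11 (0.0144) and 3.25 ± 1.06 (0.0147) for the unmasked control. Without vehicle day 7 replicate 3 the day 7 values were 6.95 and 7.07, and without the skin-rich libraries, which include that library, they were 7.29 and 6.37. With only the groups compared in the fit, the day 7 calls were lost (3.11, adjusted p = 0.106, for mXTX301, and 3.23, adjusted p = 0.0684, for the unmasked control).

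Stab1, or stabilin-1, an endocytic receptor of macrophages and sinusoidal endothelium, rose at day 7 with both drugs. In vehicle it measured 81.4, 92.8, 95.8, 82.5 and 46.5 CPM at day 4 and 80.9, 73.3, 84.2, 61.8 and 95.2 CPM at day 7. After mXTX301 it measured 116, 125, 153, 112 and 154 CPM at day 4 and 199, 219.6, 226, 235 and 271 CPM at day 7, and after the unmasked control 93.3, 139, 81.5, 89.7 and 95.1 CPM and 129, 290.4, 197, 259 and 286 CPM. The drug libraries of day 7 lay wholly above vehicle, as did the mXTX301 libraries of day 4, whereas the unmasked libraries of day 4 overlapped vehicle. Log2 fold changes at days 4 and 7 were 0.73 ± 0.19 (adjusted p = 0.00550) and 1.54 ± 0.20 (8.15e-07) for mXTX301, and 0.32 ± 0.19 (0.236) and 1.55 ± 0.20 (9.41e-07) for the unmasked control. The day 4 value for mXTX301 was 0.68 (adjusted p = 0.0556) without the skin-rich libraries. Stab1 shares 112 exon bases with Nt5dc2 on the other strand, and whether the counting used strand is not stated. The 10 blood endothelial genes summed to medians of 151 CPM in vehicle, 108 after mXTX301 and 96.2 after the unmasked control at day 4, and to 196, 166 and 180 CPM at day 7; 5 and 8 of them were lower at day 4 after mXTX301 and the unmasked control, while at day 7 the only call was 1 gene higher after mXTX301. The 6 lymphatic endothelial genes summed to medians of 21.6, 29.7 and 27.8 CPM in vehicle, mXTX301 and unmasked libraries at day 4 and to 25.3, 63.0 and 63.6 CPM at day 7. Of the 5 tested, Pdpn alone was called, higher in each drug comparison, and Ccl21a was at 0 in all libraries. The part of endothelial cells in the Stab1 values was not tested.

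Gpnmb, a transmembrane glycoprotein of lysosomes and melanosomes, rose in all 4 comparisons. Vehicle libraries measured 82.3, 76.9, 68.2, 123 and 165 CPM at day 4 and 73.4, 69.8, 89.6, 117 and 104 CPM at day 7. mXTX301 libraries measured 178, 126, 154, 196 and 261 CPM and 236, 240.3, 229, 329.5 and 358 CPM, and unmasked libraries 207, 300.4, 243, 254 and 254 CPM and 279, 321, 164, 282 and 256 CPM. Day 4 vehicle and mXTX301 libraries overlapped, and the other 3 comparisons did not. For mXTX301 the log2 fold changes were 0.82 ± 0.22 (adjusted p = 0.00663) at day 4 and 1.61 ± 0.23 (3.7e-06) at day 7. For the unmasked control they were 1.29 ± 0.23 (0.000224) and 1.52 ± 0.23 (9.4e-06). The pigment-cell genes Tyr, Dct, Mlana and Tyrp1 were near 0 in all libraries (at most 0.0300, 0.150, 0.0974 and 0.244 CPM), none of the 2 tested melanocyte genes was called, and the 8 genes of that list summed to 0.422 to 11.7 CPM.

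Mrc1, Cd163 and Folr2 rose at day 7 after mXTX301 and spread widely between mice. Mrc1, the mannose receptor, measured 22.6, 26.0, 33.9, 9.99 and 13.2 CPM in vehicle, 10.2, 40.4, 37.9, 43.3 and 47.7 CPM after mXTX301 and 12, 53.5, 34.1, 9.66 and 14.7 CPM after the unmasked control at day 4. At day 7 vehicle gave 6.73, 25.6, 52.1, 9.63 and 13.6 CPM, mXTX301 15.9, 114, 32.3, 63.9 and 191 CPM and the unmasked control 22.2, 83.3, 42.0, 84.2 and 55.3 CPM. The groups overlapped at both days, and at day 7 the standard deviation was 86.0% of the mean in vehicle and 84.8% after mXTX301. The log2 fold change was 1.96 ± 0.64 (adjusted p = 0.0137) for mXTX301 at day 7 and 1.42 ± 0.63 (0.0681, not called) for the unmasked control. At day 4 it was 0.77 ± 0.62 (0.376) and 0.23 ± 0.62 (0.819).

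Cd163, the receptor for haemoglobin bound to haptoglobin, measured 2.85, 1.49, 21.2, 3.33 and 3.64 CPM in vehicle at day 7, 3.36, 35.8, 13.4, 13.4 and 42.4 CPM after mXTX301 and 6.51, 27.0, 11.7, 22.9 and 11.7 CPM after the unmasked control. Its day 4 ranges were 1.53 to 10.5 CPM in vehicle, 3.28 to 15.2 CPM after mXTX301 and 2.86 to 14.5 CPM after the unmasked control. Folr2, the folate receptor beta, measured 2.88, 5.68, 23.5, 4.11 and 3.51 CPM in vehicle at day 7, 4.05, 37.7, 12.3, 25.8 and 71.4 CPM after mXTX301 and 9.17, 29.1, 12.8, 27.8 and 15.7 CPM after the unmasked control. At day 4 its ranges were 3.67 to 14.3, 5.73 to 21.7 and 5.51 to 20.8 CPM. For both genes the vehicle library of replicate 3 at day 7 was the highest of its group and lay inside the drug ranges. Both rose after mXTX301 at day 7, Cd163 by 1.74 ± 0.71 (adjusted p = 0.0448) and Folr2 by 1.93 ± 0.65 (0.0163) on the log2 scale. The other 3 comparisons gave 0.92, 0.24 and 1.30 for Cd163 (adjusted p from 0.135 to 0.836) and 0.90, 0.36 and 1.25 for Folr2 (0.112 to 0.716). The Folr2 exons share 975 bases with an antisense transcript, Gm10602, that has no row in the table.

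The calls of these 3 genes changed when single libraries were left out. Without mXTX301 day 7 replicate 5, the highest library of each, the day 7 values for mXTX301 were 1.38 for Mrc1 (adjusted p = 0.0786), 1.33 for Cd163 (0.144) and 1.32 for Folr2 (0.0972). With only the groups compared in the fit they were 1.94 (0.0678), 1.72 (0.130) and 1.92 (0.0906). The Cd163 call was also lost without mXTX301 day 7 replicate 2 (1.45, 0.108) and without any one of vehicle day 7 replicates 1, 2, 4 and 5 (1.46 to 1.56). It was lost as well without the low-count filter (1.71, 0.0677) and with the skin level as a covariate (1.50, 0.0657). Without vehicle day 7 replicate 3 the unmasked control gave called values of 2.02 for Mrc1 (0.0141), 2.47 for Cd163 (0.00504) and 2.20 for Folr2 (0.00613). Mrc1 was also called for the unmasked control without unmasked day 7 replicate 1 (1.60, 0.0466). With all libraries, limma on the deposited log2 values called all 3 for the unmasked control at day 7, Mrc1 at 1.64 (adjusted p = 0.0359), Cd163 at 1.77 (0.0410) and Folr2 at 1.59 (0.0413), and Mrc1 was called by DESeq2 as well (1.40, 0.0433) and with the skin level as a covariate (0.0464). Without vehicle day 7 replicate 3 the mXTX301 values at day 7 were 2.56 for Mrc1, 2.91 for Cd163 and 2.87 for Folr2. Without all skin-rich libraries the mXTX301 values were 3.90, 3.30 and 3.68, all called, and the unmasked values were 2.69 (0.0378), 2.24 (0.0929, not called) and 2.39 (0.0371).

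Pf4, also named Cxcl4, is a chemokine stored in platelets and transcribed in megakaryocytes and in some macrophages. At day 4 it measured 9.81, 7.85, 11.6, 3.57 and 11.3 CPM in vehicle, 4.64, 7.67, 8.35, 10.0 and 9.36 CPM after mXTX301 and 8.37, 13.4, 9.72, 5.92 and 12.2 CPM after the unmasked control. At day 7 vehicle gave 6.29, 9.53, 19.8, 7.99 and 4.96 CPM, mXTX301 6.87, 14.5, 11.1, 19.9 and 18 CPM and the unmasked control 13, 21.8, 9.98, 19.7 and 30.9 CPM, with overlap between all groups. The unmasked control at day 7 gave a rise of 0.97 ± 0.37 (adjusted p = 0.0320), a call that was lost without any one of vehicle replicates 1, 2, 4 and 5 or unmasked replicates 2, 4 and 5 of that day (0.71 to 0.95) and when only the groups compared were fitted (0.97, adjusted p = 0.0783). mXTX301 gave -0.14 ± 0.37 (0.813) at day 4 and 0.53 ± 0.36 (0.235) at day 7. The day 7 value was 0.94 and called without vehicle day 7 replicate 3, and 1.28 (adjusted p = 0.00496) without the skin-rich libraries. The 8 megakaryocyte and platelet genes summed to 2.12 to 5.49 CPM at day 4 and to 2.22 to 9.77 CPM at day 7, with Gp9, Gp1ba and Gp6 at most 0.370, 0.0841 and 0.0450 CPM. Of the 4 tested genes of that list none was called at day 4, and Itga2b and Treml1 were higher at day 7 with both drugs; their part in the Pf4 values was not tested.

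Fcrls was the member that fell. It measured 8.46, 7.39, 6.26, 6.91 and 5.26 CPM in vehicle at day 4, 0.536, 2.19, 1.65, 1.23 and 0.749 CPM after mXTX301 and 0.465, 0.514, 0.738, 0.316 and 0.546 CPM after the unmasked control, with 302 to 485 counts per vehicle library, 26 to 119 per mXTX301 library and 20 to 43 per unmasked library. Neither drug group overlapped vehicle at day 4. At day 7 vehicle libraries spread more widely, with 13.3, 25.9, 8.80, 4.03 and 4.65 CPM, against 0.848, 1.70, 1.16, 1.81 and 4.79 CPM after mXTX301 and 0.417, 1.40, 1.87, 2.93 and 2.41 CPM after the unmasked control. Replicate 5 of mXTX301 overlapped the 2 lowest vehicle libraries, and the unmasked libraries lay below all of vehicle. The fitted level was 5.37-fold lower after mXTX301 at day 4 (log2 -2.43 ± 0.52, adjusted p = 0.000936) and 5.50-fold lower at day 7 (-2.46 ± 0.51, 0.000332). After the unmasked control it was 13.3-fold lower at day 4 (-3.73 ± 0.55, adjusted p = 3.08e-05) and 6.27-fold lower at day 7 (-2.65 ± 0.52, 0.000186). The mXTX301 value at day 7 was -3.05 without mXTX301 day 7 replicate 5 and -1.92 without vehicle day 7 replicate 2, and the unmasked value without the latter was -2.10, all called. Without the skin-rich libraries the day 7 values were -1.65 (adjusted p = 0.0727) for mXTX301 and -2.38 (0.0540) for the unmasked control, both not called, while the day 4 values of -2.54 (0.00670) and -3.58 (0.00494) were called.

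Each member was also set against the 15 pan-macrophage genes, whose cells of origin in these tumours were not tested. It was expressed relative to their mean log2 CPM. That mean was 5.54 ± 0.19 in vehicle, 6.32 ± 0.49 after mXTX301 and 6.19 ± 0.32 after the unmasked control at day 4, and 5.57 ± 0.46, 7.23 ± 0.38 and 7.19 ± 0.60 at day 7 (log2 CPM, SD, n = 5). On this scale Fcrls was lower in every drug library than in every vehicle library of its day. The differences were -3.33 (exact two-sided permutation test, adjusted p = 0.0355) and -4.01 (0.0110) for mXTX301 at days 4 and 7, and -4.34 (0.0305) and -4.15 (0.0150) for the unmasked control. The smallest p that 5 against 5 libraries allow is 0.00794. The reference rose in every drug group, and many genes were called lower on this scale: 37.4% at day 4 and 79.5% at day 7 for mXTX301, and 50.5% and 78.3% for the unmasked control.

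Marco was higher relative to the pan-macrophage level by 3.52 (exact permutation test, adjusted p = 0.0355) and 3.47 (0.0305) at day 4 after mXTX301 and the unmasked control. With Csf1r alone as the reference both the Marco and the Fcrls calls ended for the unmasked control at day 4 (3.66 and -4.15, each with an adjusted p of 0.115). Few genes were called higher on the pan-macrophage scale at day 4, 1.22% and 1.63%. At day 7 the Marco differences were 3.52 (adjusted p = 0.0584, not called) and 3.94 (0.0497, called), where 1.36% and 1.55% of genes were higher. The day 7 call for the unmasked control was lost with Adgre1 alone as the reference (3.85, 0.0523) and with a prior count of 0.5 (4.14, 0.0501). Pf4 was lower on this scale after mXTX301 at day 7, with a difference of -1.04 (adjusted p = 0.0209), where 79.5% of genes were called lower. Its log2 fold change against vehicle there was 0.53 and not called. The other 7 members were not called in any of the 4 comparisons. For Cd68 the 4 differences lay between -0.11 and 0.10, for Stab1 between -0.32 and -0.03, and for Mrc1 between -0.61 and 0.19. With 1 library left out, the day 4 Fcrls call for mXTX301 ended without vehicle replicate 1, 2, 4 or 5 (differences of -3.45 to -3.24). For the unmasked control it ended without vehicle replicate 1, 2 or 4 (-4.29 to -4.25). The Marco call was lost in 5, 5 and 8 of the 10 such fits at day 4 after each drug and at day 7 after the unmasked control, with differences of 2.80 to 4.16. It was gained at day 7 after mXTX301 without vehicle replicate 3 (4.67) or mXTX301 replicate 1 (4.11). Without vehicle day 4 replicate 5, Gpnmb (0.87), Msr1 (0.35) and Stab1 (-0.53) were called for the unmasked control at day 4, and Msr1 (0.34) also without vehicle day 4 replicate 3. Without the skin-rich libraries, which leaves 2 to 4 libraries a group, no member was called on this scale. At day 7 the groups left were too small for any gene to be called, whatever its values. At day 4 after mXTX301 the Fcrls and Marco differences without the skin-rich libraries were -3.26 and 3.09, each with an adjusted p of 0.121.

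**Figure D3:**
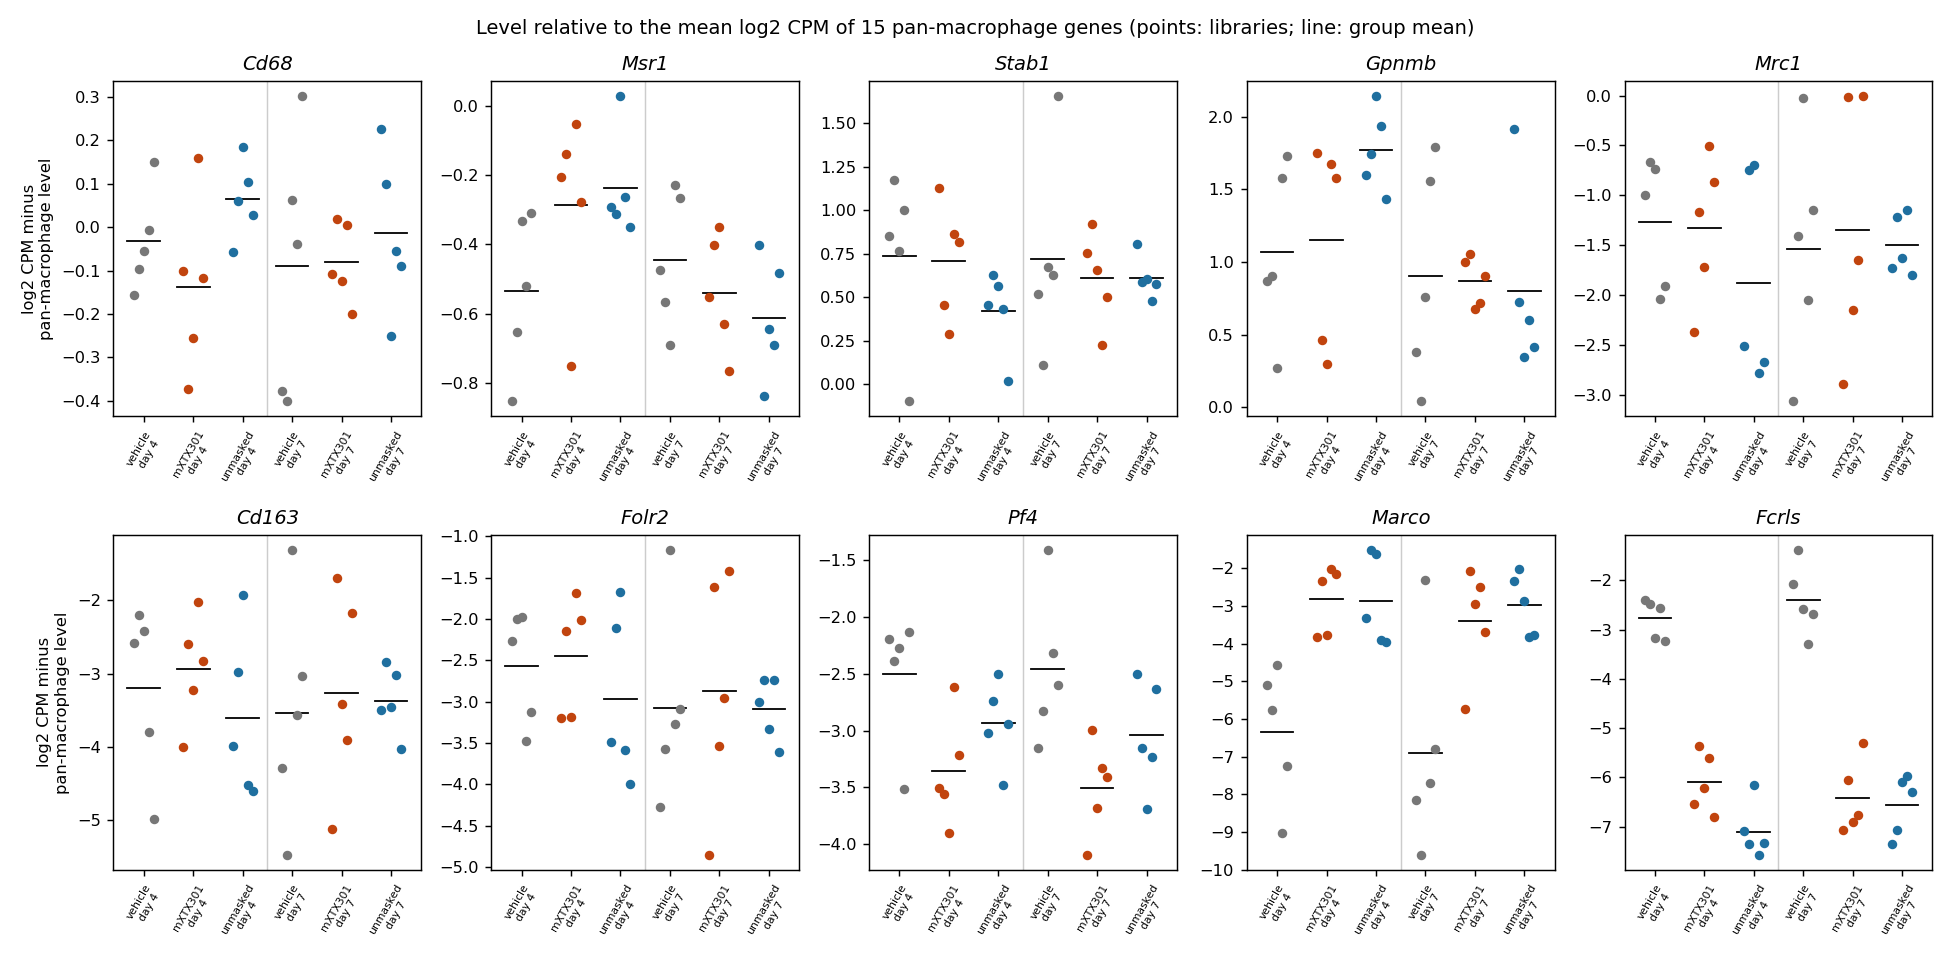
Level of each gene minus the mean log2 CPM of 15 pan-macrophage genes, per library (points) in the 6 groups with the group mean as a line. Every drug library of Fcrls lies below every vehicle library of its day, Marco lies higher in the drug groups (differences of 3.47 to 3.94), and the drug minus vehicle differences of Cd68 lie between -0.11 and 0.10.

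The masked and unmasked molecules were given at different doses, 0.39 and 0.03 mg/kg, so their values stand side by side. No member was called between them at either day (0% of all genes called at both days with edgeR). At an unadjusted p under 0.05 there were 2092 genes at day 4 and 898 at day 7, among them 3 members at day 4 (Fcrls, Stab1 and Gpnmb) and 0 at day 7, and DESeq2 called 25 and 14 genes. At day 4 the mXTX301 minus unmasked difference of Fcrls was 1.30 on the log2 scale, with a 95% interval of 0.23 to 2.37 and an adjusted p of 0.304. Stab1 differed by 0.40 (0.01 to 0.80; adjusted p = 0.358) and Gpnmb by -0.46 (-0.92 to -0.0018; 0.368). The intervals at day 7 were narrow for Cd68 (-0.52 to 0.38), Msr1 (-0.36 to 0.50) and Stab1 (-0.41 to 0.38) and wide for Marco (-2.09 to 1.86), Folr2 (-0.61 to 1.97) and Cd163 (-0.97 to 1.86). These intervals are for single genes and not adjusted for the number of genes.

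Between day 4 and day 7 no member was called in vehicle tumours, where 0.0388% of genes (6 genes) were called by edgeR. No member had an unadjusted p under 0.05 there, and DESeq2 called 604 genes. Vehicle values differed by -0.02 for Cd68 and -0.01 for Stab1, and by 0.73 for Fcrls with a 95% interval of -0.27 to 1.72. Marco differed by 1.27 (-0.90 to 3.44), and by -2.57 without vehicle day 7 replicate 3. In mXTX301 tumours 3 members were higher at day 7, against 7.88% of genes: Stab1 by 0.80 ± 0.19 (adjusted p = 0.0103), Cd68 by 0.96 ± 0.22 (0.00873) and Msr1 by 0.65 ± 0.21 (0.0405). In unmasked tumours 4 were higher, against 14.4% of genes: Stab1 by 1.22 ± 0.19 (adjusted p = 0.000795), Fcrls by 1.81 ± 0.52 (0.0142), Cd68 by 0.97 ± 0.22 (0.00356) and Msr1 by 0.67 ± 0.21 (0.0212). The Msr1 call was lost in 7 of 10 fits without 1 library for mXTX301 (0.52 to 0.72) and in 6 of 10 for the unmasked control (0.51 to 0.63). Gpnmb was called without mXTX301 day 4 replicate 5 (0.76), and Pf4 in unmasked tumours without unmasked day 4 replicate 2 or unmasked day 7 replicate 1 or 3 (1.03 to 1.08). None of the 4 unmasked calls was kept without the skin-rich libraries, and no gene of the table was called in that comparison.

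Whether a drug effect changed between days was tested as the difference of the day 7 and day 4 effects. For the unmasked control the Stab1 effect was larger at day 7 by 1.23 ± 0.27 (adjusted p = 0.0203), the only member called, while 2.95% of genes were called higher. The Stab1 value was 1.35 without vehicle day 4 replicate 5 and also without unmasked day 4 replicate 2, and 1.03 and not called without the skin-rich libraries, where no gene was called. Fcrls gave 1.08 ± 0.70 in the same comparison (adjusted p = 0.336). For mXTX301 no member was called by edgeR (4.99% of genes were), with 3 members at an unadjusted p under 0.05; DESeq2 called 2. The mXTX301 values were 0.82 ± 0.27 for Stab1 (adjusted p = 0.0721), 0.98 ± 0.31 for Cd68 (0.0618) and 0.79 ± 0.32 for Gpnmb (0.128). Stab1 was called without vehicle day 4 replicate 5 (0.95, adjusted p = 0.0288), and Cd68 without vehicle day 7 replicate 3, mXTX301 day 4 replicate 3 or mXTX301 day 7 replicate 1 (1.03 to 1.13). Without the skin-rich libraries the mXTX301 effect was larger at day 7 for 4 members, Mrc1 (3.34, adjusted p = 0.0440), Pf4 (1.64, 0.0221), Folr2 (2.92, 0.0453) and Cd68 (1.46, 0.0349).

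The members did not vary together as 1 set. As a description over the 30 libraries, with group means removed, Mrc1 and Folr2 correlated at r = 0.965, Mrc1 and Cd163 at 0.851, Cd163 and Folr2 at 0.898, Cd163 and Marco at 0.821 and Folr2 and Marco at 0.795. Msr1 and Cd68 correlated at 0.832. Gpnmb had values of -0.268 with Fcrls, 0.0420 with Msr1, 0.0645 with Mrc1 and 0.270 with Cd68. With the pan-macrophage level, the values within groups were 0.909 for Cd68, 0.881 for Msr1 and 0.690 for Fcrls, and 0.255 for Cd163, 0.204 for Marco and -0.0159 for Gpnmb. Fcrls therefore had a positive value within groups and a negative one, -0.281, over all 30 libraries. All these values share the scaling of the libraries.

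**Figure D4:**
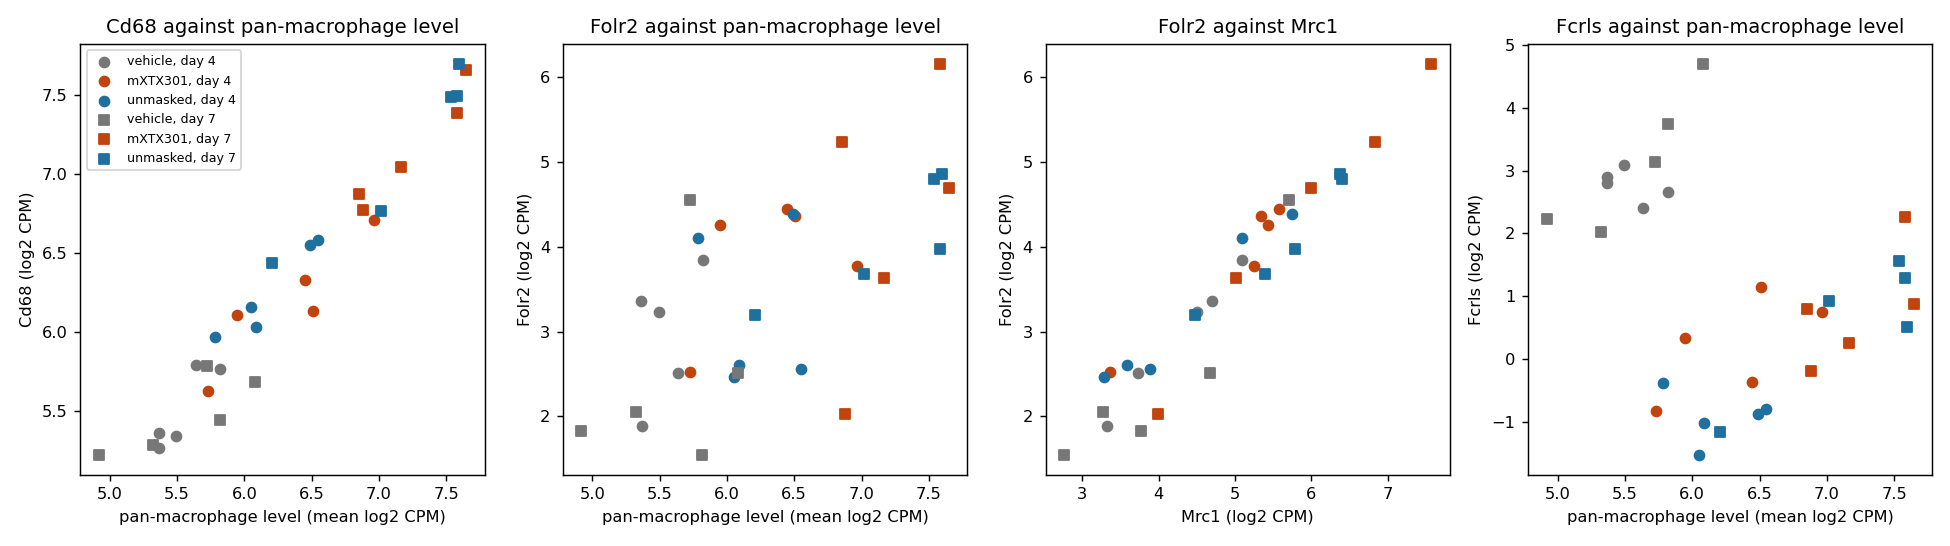
Each point is 1 of 30 libraries, circles for day 4 and squares for day 7, on log2 CPM axes. Cd68 follows the pan-macrophage level (r = 0.975), Folr2 follows it less closely (0.631) and follows Mrc1 (0.962), and Fcrls has r = -0.281, with drug libraries mostly below vehicle libraries.

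The 3 genes most like each member over the 30 libraries, by Pearson correlation of log2 CPM among 12093 genes, differed between members. For Cd68 they were Fcgr3 (r = 0.988), Cd84 and Psap, and for Msr1 Itgam (0.979), Ctsc and Clec4e. Nxpe5 (0.971) and Tnxb were among those of Mrc1, and Cd163 was most like Galnt16 (0.937), Cbr2 and Tnxb and Folr2 like Fcna (0.970), Ccl6 and Wfdc17. Stab1 was most like Rtl5 (0.953), Sash1 and Plcb2, and Marco like Rarres2 (0.923), Bst1 and Ms4a8a. Gpnmb was nearest to Gla (0.950), Mroh1 and Scpep1, and Pf4 to Ptgr1 (0.841), Ccl9 and Slc13a3. Fcrls was nearest to Kcne3 (0.915), Trex1 (0.890) and Mest (0.863).

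Other genes of the same functions were read from lists, whose counts stand against the shares of all genes called in each comparison given above. Of 14 tested other scavenger receptors, 4 rose and 2 fell at day 4 and 6 rose and 2 fell at day 7 after mXTX301, and 2 rose and 1 fell, then 5 rose and 1 fell, after the unmasked control. The median log2 fold changes were 0.34, 0.58, 0.29 and 0.34. Cd36, a class B receptor for fatty acids and oxidised lipoproteins, went from 7.43 ± 3.75 CPM in vehicle at day 7 to 55.8 ± 21.4 CPM after mXTX301 (log2 2.91, adjusted p = 2.09e-06) and 52.9 ± 26.0 CPM after the unmasked control (2.83, 3.34e-06; SD, n = 5). Scarf1, a receptor for apoptotic cells, rose by 1.97 and 1.89 at day 7, Cxcl16 by 1.76 and 1.82, and Lrp1 by 1.08 and 1.06. Scarb1, the receptor for high-density lipoprotein, fell by 0.38 after mXTX301 and by 0.45 after the unmasked control at day 7, and Ager fell by 0.94 after the unmasked control at day 4.

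Of 17 tested other genes of resident macrophages, 3 and 6 rose at days 4 and 7 after mXTX301, and 1 and 6 after the unmasked control, with 1 fall. Over all tested genes 16.2% and 25.7% were called higher after mXTX301 and 11.6% and 23.2% after the unmasked control, so the day 4 counts of this list lay near or below the share over all genes. The medians were 0.51, 0.91, 0.16 and 1.20. At day 7 the rises included Timd4, a receptor for phosphatidylserine (2.66 after mXTX301, 2.47 after the unmasked control), Selenop (2.58, 2.46), Igf1 (2.57, 1.94) and F13a1 (2.45, 1.86). Timd4 was low throughout, at most 1.83 CPM in any library. Slc40a1, the iron exporter ferroportin, rose at day 7 after the unmasked control (1.82, adjusted p = 0.0124) and gave 0.80 (0.256) after mXTX301. Tmem119, which like Fcrls is a microglia marker, fell by 0.73 after the unmasked control at day 4 (adjusted p = 0.0348) and gave -0.55, -0.24 and 0.02 in the other comparisons, not called. Cx3cr1 was not called in any of the 4.

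The lists for macrophage state gave these counts. All 14 genes of interferon-gamma-activated macrophages rose at day 7 with both drugs, and 10 and 11 rose at day 4 after mXTX301 and the unmasked control; Nos2, inducible nitric oxide synthase, rose by 2.90 and 2.73 at day 7, and Ciita, the regulator of MHC class II genes, by 3.99 and 3.70. Of 13 genes of alternative activation, 4 and 7 rose after mXTX301 and 3 and 6 after the unmasked control. These included Arg1 (2.87, 2.62 at day 7), Tgm2 (2.40, 2.30) and Irf4 (3.50, 3.63), whereas Chil3 rose at day 4 (1.41, 1.27) and was not called at day 7 (0.75, 0.49). Irf4 did not exceed 4.58 CPM in any library. Of 15 pan-macrophage genes, 11 and 15 rose after mXTX301 and 4 and 15 after the unmasked control.

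Genes of the lysosome, where cargo of these receptors is broken down, and genes of haem handling were read next. Of 17 lysosomal genes, 7 and 15 rose at days 4 and 7 after mXTX301 and 9 and 15 after the unmasked control, among them Psap (1.87, 2.00 at day 7) and Ctsb (1.54, 1.50). Among the 4 MiT/TFE transcription factors, which act on lysosomal genes, Mitf and Tfec rose in all 4 comparisons (1.26 and 2.15 after mXTX301 at day 7), and Tfeb and Tfe3 were not called. Of 7 genes for haemoglobin and haem, 1 and 6 rose after mXTX301 and 5 and 5 after the unmasked control, with Hmox1, haem oxygenase 1, at 1.13 and 1.36 and Fth1, ferritin heavy chain, at 1.51 and 1.51 at day 7. Of 11 genes of lipid-associated macrophages, 3 and 8 rose after mXTX301 and 4 and 7 after the unmasked control, among them the cholesterol exporters Abca1 (2.26, 2.55 at day 7) and Abcg1 (1.65, 1.96).

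Cytokines that act on macrophages were read as well. Ifng rose from 0.251 ± 0.215 CPM in vehicle to 5.17 ± 3.39 CPM after mXTX301 and 5.48 ± 2.15 CPM after the unmasked control at day 4 (log2 4.36 and 4.45; SD, n = 5). Csf1, the main macrophage growth factor, rose at day 4 by 0.37 (adjusted p = 0.00861) and 0.33 (0.0243), and Il34, the other ligand of its receptor, fell by 0.29 and by 0.42. Il10 rose at day 7 by 1.93 and 1.80 on the log2 scale, with a level of at most 1.93 CPM in any library. Il4 and Il13 did not pass the low-count filter.

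Monocyte genes rose in 4 and 10 of 11 cases after mXTX301 and in 2 and 6 after the unmasked control. Ly6i rose by 4.03 and 3.73 at day 7 and Ly6c2 by 1.22 and 1.07. Of 10 genes of conventional dendritic cells, which also carry Mrc1, 5 and 9 rose after mXTX301 and 4 and 7 after the unmasked control, with 1 fall after the unmasked control at day 4; their summed level had medians of 113, 203 and 193 CPM in vehicle, mXTX301 and unmasked libraries at day 4 and 121, 344 and 436 CPM at day 7. The part of dendritic cells in the Mrc1 values was not tested.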

How the data were processed

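RNA from 30 MC38 tumours (3 treatments, 2 days, 5 mice each) was sequenced after poly(A) selection. The authors deposited raw counts per gene and a table of log2 CPM values; the submitters' processing notes name the build mm10 and, as tools, edgeR 3.34.0 under R 4.1.0, HTSeq 0.11.1, STAR 2.7.10a, FastQC 0.11.9 and cutadapt, with settings and strand not given in the sources used here. The deposited log2 values cover 14877 genes and differed by at most 2e-04 from log2 CPM recomputed from the counts. The members and gene lists were chosen with earlier results of these data known.

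Of 24557 entries, 5 repeated symbols were dropped. Counts were fitted in R 4.3.3 with edgeR 4.0.16 (TMM, filterByExpr, 1 mean per group, robust quasi-likelihood F test, 24 residual degrees of freedom, biological coefficient of variation 27.3%, prior count 0.125), and p-values were adjusted by Benjamini-Hochberg over 15482 genes. Depth of 48301869 to 85195518 counts per library limits low genes such as Marco in vehicle. Replicates are separate mice. Levels relative to the pan-macrophage genes used log2 CPM with a prior count of 2 and an exact two-sided permutation test over 252 regroupings, adjusted over the same genes. The scripts were tested on simulated data.

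Named were the 10 members in every comparison, per list up to 4 genes with the smallest p in each drug comparison, and the 3 genes most correlated with each member among genes averaging at least 1 CPM. Defining markers near 0 were named for other cell types. A few items that these rules would name are not reported here. Alternatives were RLE scaling, no filter, a filter of 1 CPM in 5 libraries, DESeq2 1.42.0, limma 3.58.1 on the deposited log2 values, a replicate block, a skin covariate, only the groups compared, no skin-rich libraries, other references and priors, and each library left out.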

Additional observations from a re-analysis of the deposited data

Results flagged for a closer look

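In 6 of the 60 gene and group sets of 5 libraries, 1 library lay far from the other 4 by Dixon's gap criterion on log2 CPM; chance gives about 3. Replicate 1 of mXTX301 at day 4 was low for Mrc1 (3.36, nearest library 5.25) and for Cd163 (1.73, nearest 3.61). Stab1 was low in vehicle day 4 replicate 5 (5.54, nearest 6.35) and high in unmasked day 4 replicate 2 (7.12, nearest 6.57). Marco was high in vehicle day 7 replicate 3 (3.43, nearest -1.88) and in unmasked day 7 replicate 2 (5.58, nearest 4.15). The effect of the unmasked control on Stab1 differed between days by 1.23 on the log2 scale, by the test of that difference.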

How the results depend on the processing

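No called member value changed sign under any alternative run. With 1 library left out, 1623 of 1700 member values stayed on their side of the threshold, 54 lost and 23 gained a call, and with the other alternatives these numbers were 1133 of 1190, 32 and 25. Values that were not called changed sign in 115 and 47 cases. Low counts limit Marco in vehicle and Fcrls after the drugs.

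The 6 genes called between days in vehicle became 0 with RLE scaling, 0 without the filter, 140 with 1 CPM in 5 libraries, 604 with DESeq2, 82 with limma, 86 with the replicate block, 13 with the skin covariate, 0 with only the groups compared and 187 without the skin-rich libraries. Between the drugs, 0 genes became 25 at day 4 and 14 at day 7 with DESeq2, and 194 at day 4 with only the groups compared. For the change of the mXTX301 effect between days, the 0 members and 772 genes became 2 and 1474 with DESeq2, 514 genes with only the groups compared, and 4 members and 1280 genes without the skin-rich libraries. For the change of the unmasked effect, the 1 member and 798 genes became 473 genes without the filter, 2 and 1722 with DESeq2, 287 genes with only the groups compared, and 0 and 0 without the skin-rich libraries. With only the groups compared, 5 members in place of 9 were called for mXTX301 at day 7. Without the skin-rich libraries, which leaves fewer samples, the unmasked comparisons gave 1618 genes at day 4 (3465 with all), 2415 at day 7 (6973 with all), and 0 members and 0 genes between days (4 and 4009 with all). Apart from the smaller number of samples, the cause of these shifts was not tested.

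Relative to the pan-macrophage level, 37.4% of all tested genes were called lower at day 4 and 79.5% at day 7 after mXTX301. After the unmasked control these shares were 50.5% and 78.3%. Called higher were 1.22% and 1.36% after mXTX301, and 1.63% and 1.55% after the unmasked control. Of the members, 2 were called in each comparison. These became 0 for the unmasked control at day 4 with Csf1r alone as reference, 4 for mXTX301 at day 4 and 1 for the unmasked control at day 7 with Adgre1 alone, 1 at day 7 with a prior count of 0.5, and 0, 0, 0 and 0 without the skin-rich libraries. In that last alternative the day 7 counts were fixed at 0, as the groups left were too small for any call.

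With 1 library left out, the genes called ranged from 0 to 1075 between days in vehicle, from 533 to 3420 between days for mXTX301, from 0 to 5 between the drugs at day 7, from 200 to 1225 for the change of the mXTX301 effect and from 132 to 3025 for that of the unmasked effect. Members called ranged from 0 to 1 and from 1 to 2 for these changes, and relative to the pan-macrophage level from 0 to 2 (mXTX301, day 4), 0 to 5 (unmasked, day 4) and 1 to 2 (unmasked, day 7).

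Same-number libraries were on average only slightly more alike than others, and whether replicate numbers pair the samples was not tested. Over 2000 genes, 75 same-number pairs of libraries had a mean correlation of deviations of 0.0465 (-0.687 to 0.783), against -0.00421 for other pairs, and 9 of 30 libraries correlated best with their own number. With the replicate block, 6, 9, 5 and 8 members were called in the 4 drug comparisons, against 6, 9, 5 and 7 without it, as Mrc1 was gained for the unmasked control at day 7 (1.59, adjusted p = 0.0223), and 1 member for the change of the mXTX301 effect.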

Other observations

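Marker genes of other cell types were counted too. Over all tested genes, 16.2% and 25.7% were called higher at days 4 and 7 after mXTX301, and 11.6% and 23.2% after the unmasked control. Called lower at day 4 after mXTX301 were 16.0%. Of 12 T cell genes, 11 rose at day 4 and 12 at day 7 after mXTX301, and 10 and 12 after the unmasked control. Of 7 tested natural killer cell genes, 5 rose at day 4 and 4 at day 7 with either drug. Of 7 tested mast cell genes, 1 rose at day 4 and 6 at day 7 with either drug, and 1 fell at day 4 after mXTX301. Of 9 tested neutrophil genes, 2 rose at day 4 and 4 at day 7 after mXTX301, and 5 and 7 after the unmasked control. Of 9 fibroblast genes, 6 rose at day 7 after mXTX301 and 1 after the unmasked control. The day 4 mast cell counts, the day 4 neutrophil count after mXTX301 and the unmasked fibroblast count lay near or below the shares over all genes. No tested gene was called between the drugs at either day by edgeR, and the lists were not tested as sets. None of the 11 epidermal or 6 skeletal muscle genes was called in any of the 4 drug comparisons.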
